A study of Homo sapiens with 27 samples.

Results

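The 10 genes described here are those through which B cells send and read positional and inflammatory signals, followed in the RNA-seq data of 3 diffuse large B-cell lymphoma (DLBCL) cell lines after knockdown of SIRT3, the mitochondrial NAD-dependent deacetylase. They were set by gene name, with earlier results of these data known, and all 10 were found among the 27115 genes listed for each library. They are the chemokine ligands CCL3, CCL4 and CCL22, the cytokines TNF, LTA, IL10 and IL6, and the chemokine receptors CXCR4, CXCR5 and CCR7. Karpas422 represents the OXPHOS subtype of DLBCL, OCILy1 the germinal centre B-cell-like (GCB) subtype and HBL1 the activated B-cell-like (ABC) subtype. Each line was infected with a lentivirus carrying a scrambled control hairpin (shCTRL) or 1 of 2 hairpins against SIRT3 (shSIRT3_1 and shSIRT3_2), and total RNA was collected on day 8 from 3 replicates of each of the 9 groups. Control and knockdown cells therefore shared the infection, the vector and its puromycin resistance and YFP markers, each subtype was represented by 1 cell line, and OCILy1 was cultured in a different medium from the other lines. The question addressed was how these genes differed between the lines and whether their levels moved with either hairpin.

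Chemokines are small secreted proteins that attract cells carrying the matching G protein-coupled receptor. CXCR5 reads CXCL13 and places B cells in follicles, CCR7 reads CCL19 and CCL21 and draws them towards T-cell zones, and CXCR4 reads CXCL12 and holds them in bone marrow and in the germinal centre dark zone. Activated B cells in turn secrete CCL3 and CCL4, which attract T cells and myeloid cells, and CCL22, which attracts cells carrying CCR4. TNF and lymphotoxin alpha (LTA) are related ligands of the TNF receptors, while IL10 and IL6 signal through JAK and STAT proteins.

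Values are given as CPM, the reads of a gene scaled to a fixed library total, and are not corrected for gene length unless stated. The 27 libraries held between 28694398 and 53405456 reads on genes, and 3 reads corresponded to 0.0249 to 0.0472 CPM. SIRT3 itself fell with both hairpins in each line, although the call for shSIRT3_2 in OCILy1 was lost (adjusted p 0.0571 to 0.125) without shCTRL replicate 2 or 3, shSIRT3_1 replicate 3 or any shSIRT3_2 replicate. Relative to the shCTRL mean, its mean level with shSIRT3_1 and shSIRT3_2 was 26.6% and 54.4% in Karpas422, 14.3% and 47.2% in OCILy1, and 14.8% and 22.2% in HBL1. Libraries of a group correlated with the mean of their other two replicates at r of 0.959 to 0.998 on the log2 scale, the lowest being HBL1 shSIRT3_1 replicate 3. Each of 6 B-cell markers was expressed in the 3 lines, whereas among 6 T-cell markers only CD3G and CD3D reached 1 CPM in 3 libraries, both in Karpas422, where the summed level of the list was 18.5 to 43.4 CPM. The summed level of 6 ABC markers was 673 to 1459 CPM in HBL1 and at most 188 CPM elsewhere, and that of 6 GCB markers was 66.8 to 184 CPM in HBL1 and at least 399 CPM in the other lines. OCILy1 shCTRL replicate 2 and OCILy1 shSIRT3_1 replicate 1 held low levels of genes abundant in HBL1, including 0.138 and 0.0635 CPM of CCL22 and 0.225 and 0.336 CPM of TNFRSF1B, and the part of this in the results was not tested.

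To show the sequences at which transcription of these genes starts, the 250 bases before the annotated start are given for the members whose change was largest or whose neighbour responded differently. The sequences are from RefSeq on GRCh38.p14, which held an entry for 8 of the 10 members (all but CCL4 and CCR7), the first listed start being used, and they run 5′ to 3′ on the strand of the gene. Capitals mark every match to a short list of motifs searched on both strands, namely the NF-kappaB consensus, TGACGTCA, TGATGNAA, TGANTCA and TTCNNNGAA, and to TATAAA on the strand of the gene alone.

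CCL22, chr16:57358533-57358782, plus strand: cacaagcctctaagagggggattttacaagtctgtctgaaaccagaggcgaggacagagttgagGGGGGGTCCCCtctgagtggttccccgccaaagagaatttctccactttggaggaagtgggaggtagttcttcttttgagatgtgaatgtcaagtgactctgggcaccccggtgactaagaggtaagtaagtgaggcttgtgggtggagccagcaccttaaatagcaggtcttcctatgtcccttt

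CCL3, chr17:36090144-36090393, minus strand: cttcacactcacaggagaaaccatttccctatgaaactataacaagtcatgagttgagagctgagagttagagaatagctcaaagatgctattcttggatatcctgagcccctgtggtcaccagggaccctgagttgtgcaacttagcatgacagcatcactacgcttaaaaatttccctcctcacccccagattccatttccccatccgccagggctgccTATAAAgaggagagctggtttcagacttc

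TNF, chr6:31575315-31575564, plus strand: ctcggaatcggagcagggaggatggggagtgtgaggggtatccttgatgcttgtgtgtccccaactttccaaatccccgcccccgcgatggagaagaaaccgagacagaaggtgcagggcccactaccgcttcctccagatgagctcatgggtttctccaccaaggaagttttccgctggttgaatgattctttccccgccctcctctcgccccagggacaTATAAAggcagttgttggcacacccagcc

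LTA, chr6:31571849-31572098, plus strand: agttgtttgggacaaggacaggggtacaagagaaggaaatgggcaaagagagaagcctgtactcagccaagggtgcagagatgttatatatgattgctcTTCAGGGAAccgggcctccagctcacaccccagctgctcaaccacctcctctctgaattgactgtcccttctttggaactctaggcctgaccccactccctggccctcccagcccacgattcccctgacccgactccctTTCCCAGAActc

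CCL22 held a pair of overlapping NF-kappaB matches, which together make the run of capitals from 186 to 176 bases before the start, and the only other member with such a match was IL6. This motif was found in the same window of 9.57% of 27305 genes. CCL3 and TNF each held TATAAA beginning 29 bases before the start, a motif present in 7.175% of all windows, and LTA held none but had TTCNNNGAA at 2 positions, a motif of 6.775% of all windows. None of the 8 held TGACGTCA, TGATGNAA or TGANTCA in this window. A match is a description of the letters and not of a bound site.

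The lines differed in which of these genes they expressed. In exon length-corrected units (CPM per kb of annotated exon), HBL1 controls expressed CXCR5 at 50.3 ± 0.670, CCR7 at 44.5 ± 9.22 and CCL22 at 25.7 ± 13.4 (SD, n = 3), followed by LTA at 9.41 ± 3.42 and TNF at 4.21 ± 0.896. The order of CXCR5 and CCR7 was within their spread. CXCR4 at 2.06, CCL3 at 1.54, CCL4 at 0.908 and IL10 at 0.456 CPM per kb were lower in HBL1, and IL6 was at 0.0181. OCILy1 controls expressed CXCR4 at 55.6 ± 29.6 and CXCR5 at 54.2 ± 4.86 CPM per kb, values that did not differ beyond their spread, and no other member exceeded 1.41. In Karpas422 controls the highest members were LTA at 45.9 ± 28.5 and TNF at 30.1 ± 17.8 CPM per kb, again within their spread, and no other member exceeded 1.22. Chemokine receptors were thus the most abundant members in OCILy1 and HBL1, and TNF family ligands in Karpas422.

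These differences were tested with limma on log2(CPM + 0.1), and a gene was called when it changed by more than 1.5-fold with a Benjamini-Hochberg adjusted p under 0.05 over all genes tested. Between HBL1 and Karpas422 controls 7 of 9 tested members were called, where 54.6% of all tested genes were called, 25.8% higher and 28.8% lower in HBL1. CCR7 (log2 difference 9.64 ± 0.29 SE) and CXCR5 (8.85 ± 0.20) were higher in HBL1, and TNF (−2.57 ± 0.55) and LTA (−2.11 ± 0.47) were lower. Between HBL1 and OCILy1 controls 8 members were called against a background of 54.6% (29.6% higher and 25% lower), CXCR4 being lower in HBL1 by a log2 difference of −4.60 ± 0.38 and CXCR5 having a difference of −0.10 ± 0.20 (limma adjusted p = 0.66). Between Karpas422 and OCILy1 controls 7 members were called against a background of 50.8% (28.2% higher and 22.6% lower), with CXCR5 lower in Karpas422 by −8.96 ± 0.20 and TNF higher by 5.94 ± 0.55. CCL22 and IL10 entered the test only through HBL1, since no library of the other lines reached 0.14 CPM of either gene, so they had to differ there and nothing is read from their calls. Without them 5 of 7 members were called between HBL1 and Karpas422 and 6 of 7 between HBL1 and OCILy1. Differences against near-zero levels depend on the added 0.1 CPM and are not bounds, and the culture medium of OCILy1 cannot be told apart from the line.

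**Figure D1:**
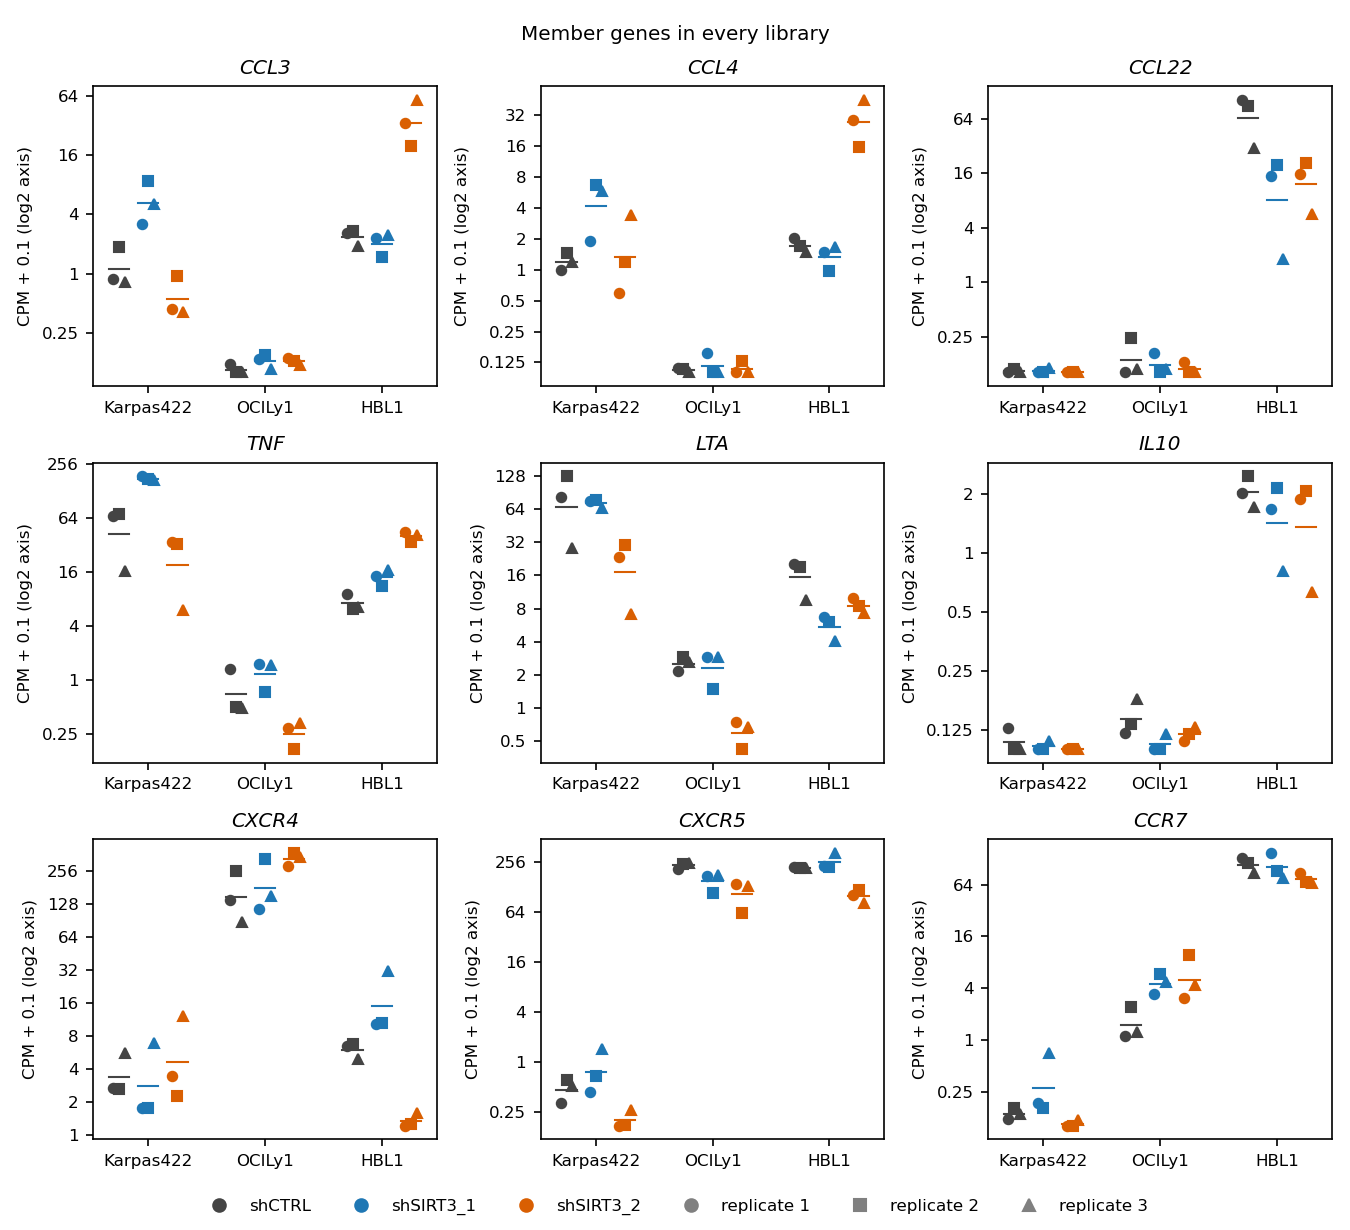
Each panel plots CPM plus 0.1 on a log2 axis for 1 member in all 27 libraries, with colours for the hairpin, symbols for the replicate number and a bar at the mean of log2 values. CCL3 and CCL4 reach 15.7 to 58.2 CPM in the 3 HBL1 shSIRT3_2 libraries, CCL22 exceeds 0.14 CPM only in HBL1, and TNF is higher in the 3 Karpas422 shSIRT3_1 libraries than in any other.

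Within each line the 2 knockdown groups were compared with the same shCTRL libraries, so their values are set side by side and are not independent. In Karpas422, 5 members passed the filter of 1 CPM in 3 libraries (CCL3, CCL4, CXCR4, TNF and LTA). With shSIRT3_1, 3 of them were called higher and none lower, where 16% of all tested genes were called, 4.45% higher and 11.5% lower. CCL3 among them passed the filter only through the shSIRT3_1 libraries, where it was high. With shSIRT3_2, 1 was called lower and none higher, against a background of 15% (5.55% higher and 9.44% lower). In OCILy1, 5 members were tested (CXCR4, CXCR5, CCR7, TNF and LTA). None was called with shSIRT3_1 by limma (background 4.5%, with 2.04% higher and 2.45% lower), 1 of them, CCR7, having an unadjusted p under 0.05. The edgeR quasi-likelihood test also called none and its likelihood ratio test called 1. With shSIRT3_2, 1 was called higher and 2 lower (background 6.41%, with 2.15% higher and 4.26% lower). In HBL1, 9 members were tested, all except IL6. With shSIRT3_1, 2 were called higher and 2 lower (background 27.7%, with 8.83% higher and 18.8% lower), and with shSIRT3_2, 3 were called higher and 2 lower (background 23.5%, with 7.51% higher and 16% lower). The median log2 fold change over the tested members was 1.81 and −0.99 for the respective hairpins in Karpas422, 0.27 and −1.15 in OCILy1, and −0.23 and −0.60 in HBL1, while over all tested genes it lay between −0.11 and 0.02. Replicate numbers paired the libraries of OCILy1 and of HBL1, and with the replicate number as a block the counts with shSIRT3_1 and shSIRT3_2 became 1 and 5 in OCILy1 and 4 and 7 in HBL1. Groups that did not overlap were common among all tested genes. With shSIRT3_1 and shSIRT3_2, 51.2% and 46.98% of them lay wholly above or wholly below the controls in Karpas422, 30.9% and 33.3% in OCILy1, and 50.9% and 60.9% in HBL1.

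**Figure D2:**
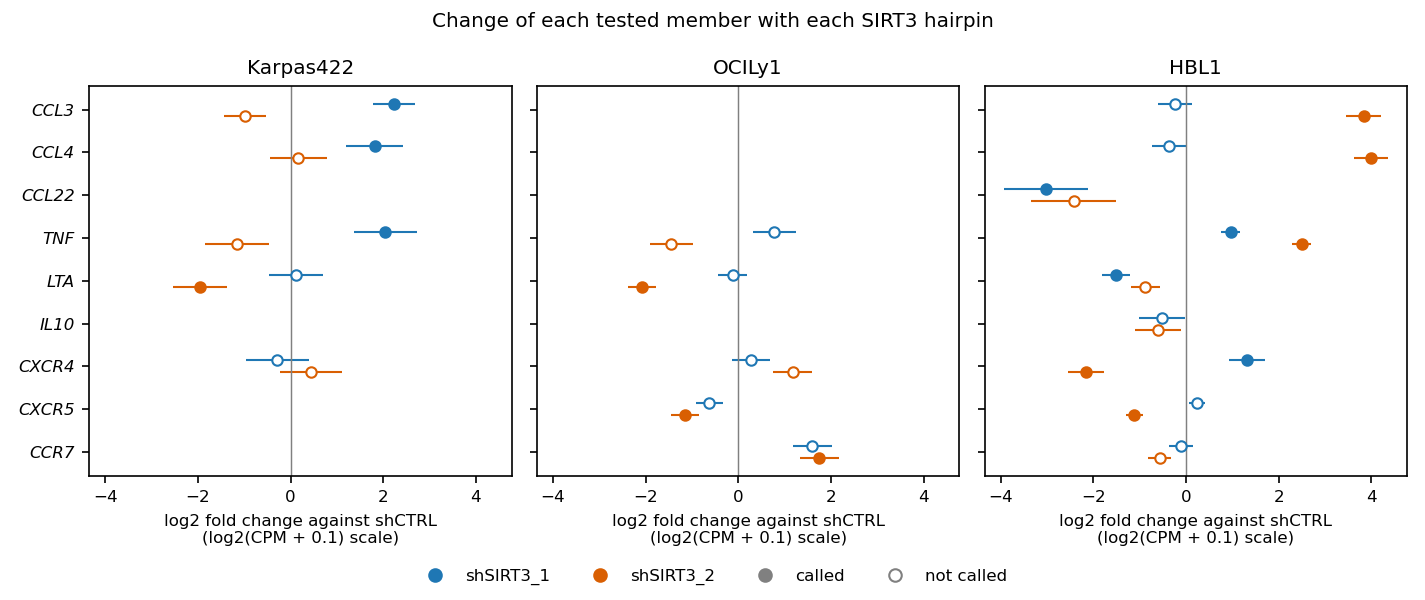
Points are log2 fold changes of each tested member against shCTRL with bars of 1 SE, in 1 panel per line, filled where called and open where not. A member with no point was not tested in that line, and CXCR4 lies on opposite sides of zero for the 2 hairpins in HBL1, at 1.32 and −2.16.

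The response of the members to the hairpins depended on the line. In a model with a term for every line and hairpin, 7 of 9 tested members differed in their response between lines (adjusted p under 0.05, no fold change threshold), where 41.8% of all tested genes did. CCL22 and IL10 passed the filter through HBL1 alone and were near 0 in the other lines, and without them 6 of 7 members differed. CCL3 and CCL4 in OCILy1 (at most 5 and 6 reads) and CCR7 and CXCR5 in Karpas422 (at most 0.594 and 1.33 CPM) were also under the filter. Those lines could show little of a response for these genes. The limma adjusted p was 1.85e-07 for CCL3, 1.54e-05 for CCL4, 0.000418 for TNF, 0.00135 for CXCR4, 0.0153 for LTA, 0.016 for CCR7 and 0.0337 for CCL22. CXCR5 (0.101) and IL10 (0.824) did not pass. The CCL22 call was lost (adjusted p 0.0517 to 0.111) without Karpas422 shCTRL replicate 1, OCILy1 shCTRL replicate 3, or HBL1 shCTRL replicate 1 or 2, and edgeR gave it an adjusted p of 0.945 by the quasi-likelihood and 0.704 by the likelihood ratio test. In the model that assumes 1 effect for all lines, CCR7 alone was called with shSIRT3_1 (0.83 ± 0.33, adjusted p = 0.0465, background 13%, of which 3.92% higher and 9.09% lower), and the call was lost in 14 of 27 fits that left out 1 library, at 0.0505 to 0.111. These 14 libraries were replicates 1 and 3 of Karpas422 shCTRL and of Karpas422 shSIRT3_1, all OCILy1 shCTRL replicates, OCILy1 shSIRT3_1 replicates 2 and 3, OCILy1 shSIRT3_2 replicate 1, HBL1 shCTRL replicate 3, HBL1 shSIRT3_1 replicate 1, and HBL1 shSIRT3_2 replicates 1 and 2. With shSIRT3_2, CXCR5 (−1.16 ± 0.22, adjusted p = 0.000242) and LTA (−1.64 ± 0.35, adjusted p = 0.000765) were called lower over the lines, against a background of 13.5% (3.29% higher and 10.2% lower), whereas the edgeR quasi-likelihood test called 5 members.

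CCL3 and CCL4, inflammatory chemokines that attract T cells and myeloid cells, lie 13704 bases apart on chromosome 17 (CCL3 at chr17:34415602-34417515 and CCL4 at chr17:34431220-34433014, hg19) and gave the largest increases. In HBL1, CCL3 was at 2.49, 2.64 and 1.80 CPM in the shCTRL libraries, at 2.18, 1.38 and 2.36 CPM with shSIRT3_1 and at 33.5, 19.8 and 58.2 CPM with shSIRT3_2. CCL4 was at 1.92, 1.60 and 1.37 CPM in controls, at 1.40, 0.863 and 1.56 CPM with shSIRT3_1 and at 28.5, 15.7 and 45.0 CPM with shSIRT3_2. For both genes every shSIRT3_2 library lay above every other HBL1 library, while the other groups overlapped. The log2 fold change with shSIRT3_2 was 3.83 ± 0.37 for CCL3 (adjusted p = 0.000222) and 3.99 ± 0.37 for CCL4 (adjusted p = 0.000179), and the mean levels were 16.1 and 18.2 times those of the controls. With shSIRT3_1 it was −0.23 ± 0.37 and −0.36 ± 0.37, neither called. The difference between the hairpins was itself called, at 4.07 ± 0.37 for CCL3 and 4.35 ± 0.37 for CCL4, among 5 members called between the hairpins in HBL1 where 27.9% of genes were called, 14.9% higher and 13.1% lower.

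In Karpas422 it was shSIRT3_1 that moved these chemokines. CCL3 was at 0.778, 1.76 and 0.733 CPM in the controls, at 3.09, 8.57 and 5.05 CPM with shSIRT3_1 and at 0.343, 0.853 and 0.313 CPM with shSIRT3_2. CCL4 was at 0.881, 1.36 and 1.09 CPM in the controls, at 1.79, 6.63 and 5.66 CPM with shSIRT3_1 and at 0.497, 1.08 and 3.29 CPM with shSIRT3_2. The shSIRT3_1 libraries lay above all controls for both genes, and the shSIRT3_2 libraries overlapped the controls. The log2 fold change with shSIRT3_1 was 2.24 ± 0.45 for CCL3 (adjusted p = 0.00556) and 1.81 ± 0.61 for CCL4 (adjusted p = 0.0451). Outside shSIRT3_1, CCL3 reached 1 CPM in control replicate 2 alone. It thus passed the filter only through the group where it was high, and its calls with that group in Karpas422 are descriptive. The CCL4 call was lost, at adjusted p of 0.0595 to 0.14, when any Karpas422 control, shSIRT3_1 replicate 2 or 3, or shSIRT3_2 replicate 2 was left out. With shSIRT3_2, CCL3 had a log2 fold change of −0.99 ± 0.45 and CCL4 of 0.16 ± 0.61, neither called. Between the hairpins in Karpas422, 3 members were called (background 11.5%, with 6.87% higher and 4.67% lower), CCL3 being lower with shSIRT3_2 by −3.22 ± 0.45. OCILy1 held at most 5 reads of CCL3 and 6 reads of CCL4 in any library, so that no change was detectable there at this depth.

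Both chemokine genes have near-identical copies nearby, and reads could have been divided among them in the authors' counting. In HBL1, CCL4L2 was at 0.102, 0.126 and 0.0657 CPM in controls and at 0.713, 0.374 and 1.05 CPM with shSIRT3_2, whereas CCL3L1 was at most 0.0586 CPM and CCL3L3 at most 0.0166 CPM in any HBL1 library. CCL3L1 reached 0.547 CPM in Karpas422, and in OCILy1 it was at 0.0398 to 0.402 CPM where CCL3 was at most 0.0514 CPM. The ratio of CCL3 to CCL4 reads in HBL1 was 1.30 to 1.65 in controls, 1.51 to 1.60 with shSIRT3_1 and 1.17 to 1.29 with shSIRT3_2. The shSIRT3_2 ratios lay below all others of HBL1, by a narrow margin, while the levels of the genes differed more than 10-fold. In Karpas422 the ratio ranged from 0.0954 to 1.72, the lowest value belonging to shSIRT3_2 replicate 3, where CCL4 was at 3.29 and CCL3 at 0.313 CPM. Which gene pairs to form ratios of was decided after their values were seen, so the ratios are given without a test.

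CCL22, the ligand of CCR4 made by activated B cells and dendritic cells, exceeded 0.14 CPM in HBL1 alone and was called lower there with shSIRT3_1. It was at 105, 88.7 and 30.7 CPM in the HBL1 shCTRL libraries, at 14.8, 19.7 and 1.72 CPM with shSIRT3_1 and at 15.6, 20.9 and 5.53 CPM with shSIRT3_2. Replicate 3 was the lowest library of each group, and neither knockdown group overlapped the controls. Of all genes tested in HBL1, 30.8% with shSIRT3_1 and 34.2% with shSIRT3_2 lay below every control in the same way. The log2 fold change was −3.02 ± 0.91 with shSIRT3_1 (adjusted p = 0.028, called) and −2.43 ± 0.91 with shSIRT3_2 (adjusted p = 0.0673, not called). With replicate number as a block, shSIRT3_2 was called too (adjusted p = 0.00184), as it was without HBL1 shSIRT3_1 replicate 3 (0.00641). The shSIRT3_1 call was lost without HBL1 shCTRL replicate 1 or 2 (0.0915 to 0.0929) and kept with the replicate block (0.000789). The hairpins did not differ detectably from each other (0.60 ± 0.91).

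CCL22 lies at chr16:57392695-57400101 (hg19), with CX3CL1, a membrane-bound chemokine, 6287 bases further and CCL17, the other ligand of CCR4, beyond it. CX3CL1 was at 11.9, 10.4 and 3.39 CPM in HBL1 controls, at 1.90, 3.63 and 0.612 CPM with shSIRT3_1 and at 2.18, 3.32 and 0.939 CPM with shSIRT3_2. Its log2 fold change was −2.13 ± 0.70 (adjusted p = 0.0396, and 0.000607 with the replicate block) and −1.93 ± 0.70 (adjusted p = 0.0616, and 0.000907 with the replicate block). The latter was also called without shCTRL replicate 3 or without shSIRT3_1 replicate 2 or 3 (0.0182 to 0.0465). The shSIRT3_1 call was lost in 5 fits that left out 1 HBL1 library, namely shCTRL replicate 1 or 2, shSIRT3_1 replicate 1 or 3, or shSIRT3_2 replicate 1, at adjusted p of 0.0593 to 0.128. CCL17 was at most 0.508 CPM and was not tested. Over the 27 libraries, after each line's mean was subtracted, CX3CL1 was the gene most like CCL22 (Pearson r = 0.973), and since both are near zero outside HBL1 this rests on the 9 HBL1 libraries.

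TNF and LTA, ligands of the shared TNF receptors, are neighbours within 1240 bases of each other on chromosome 6 (LTA at chr6:31539831-31542101 and TNF at chr6:31543342-31546113, hg19). In HBL1, TNF was at 8.80, 6.08 and 6.33 CPM in controls, at 14.2, 10.9 and 16.7 CPM with shSIRT3_1 and at 44.6, 34.4 and 41.2 CPM with shSIRT3_2. LTA was at 20.3, 19.2 and 9.52 CPM in controls, at 6.68, 5.90 and 3.95 CPM with shSIRT3_1 and at 9.90, 8.30 and 7.20 CPM with shSIRT3_2. All TNF values of the 3 groups were separate, in the order control, shSIRT3_1 and shSIRT3_2, and all LTA values with shSIRT3_1 were below the controls. TNF rose by a log2 fold change of 0.96 ± 0.20 with shSIRT3_1 (adjusted p = 0.00552) and 2.50 ± 0.20 with shSIRT3_2 (adjusted p = 0.000102), and the hairpins differed by 1.53 ± 0.20. The shSIRT3_1 call for TNF was lost when the spread was shared over all 27 libraries (adjusted p = 0.16). LTA fell by 1.51 ± 0.31 on the log2 scale with shSIRT3_1 (adjusted p = 0.00531), and its value with shSIRT3_2 was −0.88 ± 0.31 (adjusted p = 0.0539, and 0.00434 with the replicate block). The last was also called without HBL1 shCTRL replicate 3 or without shSIRT3_1 replicate 3 (0.00891 to 0.0234).

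In Karpas422 the 2 hairpins moved the locus differently. TNF was at 66.2, 69.3 and 16.2 CPM in controls, at 185, 172 and 166 CPM with shSIRT3_1 and at 34.3, 32.4 and 5.89 CPM with shSIRT3_2. LTA was at 83.2, 127 and 28.5 CPM in controls, at 76.0, 77.1 and 65.7 CPM with shSIRT3_1 and at 23.3, 30.4 and 7.04 CPM with shSIRT3_2. Replicate 3 was the lowest for both genes in every group, by a wide margin in the control and shSIRT3_2 groups, so that the LTA groups overlapped and TNF with shSIRT3_2 overlapped the controls. TNF was called higher with shSIRT3_1 (2.05 ± 0.69, adjusted p = 0.0435) but the call was lost when any of the 6 libraries compared was left out (0.0514 to 0.134). LTA was called lower with shSIRT3_2 (−1.97 ± 0.58, adjusted p = 0.0289), a call lost without Karpas422 shCTRL replicate 1 or 2 or shSIRT3_2 replicate 3 (0.0695 to 0.109). TNF with shSIRT3_2 had a log2 fold change of −1.16 ± 0.69 (adjusted p = 0.222, and 0.0614 with the replicate block), not called. Leaving out replicate 3 of all 3 groups, a choice made after seeing the data, gave −1.02 (adjusted p = 0.000101). Without replicate 1 or replicate 2 of all 3 groups no member was called with shSIRT3_2, so nothing is read from this subset. Between the hairpins TNF (−3.21 ± 0.69) and LTA (−2.08 ± 0.58) were lower with shSIRT3_2. The LTA call was lost without any of the shSIRT3_1 libraries or without shSIRT3_2 replicate 3 (0.0698 to 0.0862).

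In OCILy1 both genes were low, and shSIRT3_2 gave the lowest values. TNF was at 1.22, 0.398 and 0.388 CPM in controls, at 1.41, 0.627 and 1.36 CPM with shSIRT3_1 and at 0.188, 0.0686 and 0.226 CPM with shSIRT3_2. LTA was at 2.05, 2.78 and 2.50 CPM in controls, at 2.80, 1.39 and 2.78 CPM with shSIRT3_1 and at 0.643, 0.323 and 0.579 CPM with shSIRT3_2. The shSIRT3_2 libraries were below all others for both genes. LTA was called lower with shSIRT3_2 (−2.08 ± 0.31, adjusted p = 0.0099). TNF had −1.45 ± 0.46 (adjusted p = 0.0775, and 0.025 with the replicate block). Of the members tested, TNF and LTA were the 2 called between the hairpins in OCILy1 (background 4.68%, with 2.19% higher and 2.49% lower), at −2.22 ± 0.46 and −1.95 ± 0.31. The TNF call was lost without OCILy1 shSIRT3_2 replicate 1 or 2 (0.0558 to 0.0702) and kept with the replicate block (0.00637).

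The ratio of TNF to LTA reads within a library does not depend on library size. In HBL1 it was 0.317 to 0.664 in controls, 1.84 to 4.21 with shSIRT3_1 and 4.14 to 5.72 with shSIRT3_2. In Karpas422 it was 0.544 to 0.795 in controls, 2.22 to 2.53 with shSIRT3_1 and 0.836 to 1.47 with shSIRT3_2. In these lines every knockdown library had a higher ratio than every control, and in the 2 shSIRT3 groups of HBL1 and in shSIRT3_1 of Karpas422 TNF was the more abundant of the pair. In OCILy1 the groups overlapped, at 0.143 to 0.596 in controls, 0.452 to 0.502 with shSIRT3_1 and 0.212 to 0.390 with shSIRT3_2.

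**Figure D3:**
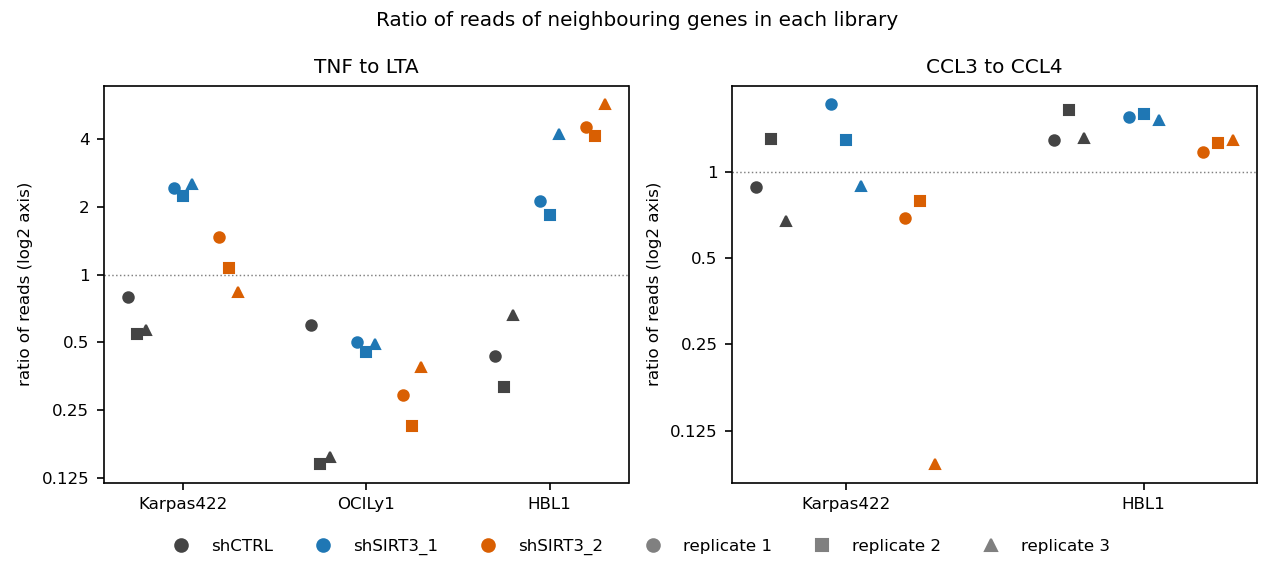
The ratio of reads of 2 neighbouring genes is shown for each library on a log2 axis, TNF to LTA on the left and CCL3 to CCL4 on the right, with OCILy1 left out on the right because its libraries hold at most 6 reads of either gene. TNF to LTA ratios of knockdown libraries lie above all controls in Karpas422 and HBL1, and the CCL3 to CCL4 ratios of HBL1 stay between 1.17 and 1.65.

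The neighbour LTB, which joins LTA in a membrane-bound heterotrimer, lies 2188 bases beyond TNF. In HBL1 it was at 1.64, 2.00 and 2.60 CPM in controls, at 6.72, 9.59 and 8.43 CPM with shSIRT3_1 and at 2.48, 2.48 and 1.60 CPM with shSIRT3_2. It was called higher with shSIRT3_1 (1.94 ± 0.24), as was TNF, while LTA was called lower, and it had 0.07 ± 0.24 with shSIRT3_2. In OCILy1, LTB was at 30.7, 50.4 and 33.1 CPM in controls and at 8.03, 1.91 and 7.18 CPM with shSIRT3_2 (−2.92 ± 0.55, called lower). In Karpas422 it was at 21.0, 14.9 and 3.01 CPM in controls, at 23.0, 36.5 and 16.4 CPM with shSIRT3_1 and at 4.25, 5.30 and 0.932 CPM with shSIRT3_2. Neither hairpin was called there (1.28 ± 0.76 and −1.78 ± 0.76), and the hairpins differed from each other by −3.06 ± 0.76 (limma adjusted p = 0.0194).

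IL10, an anti-inflammatory cytokine made by a subset of B cells, was detected above trace levels in HBL1 alone. It was at 1.94, 2.37 and 1.63 CPM in controls, at 1.59, 2.05 and 0.711 CPM with shSIRT3_1 and at 1.79, 1.99 and 0.535 CPM with shSIRT3_2. The groups overlapped, replicate 3 being the lowest in each, and neither hairpin was called (−0.52 ± 0.50 and −0.60 ± 0.50). IL6, a growth factor for plasma cells and some lymphoma cells, stayed at or below 0.272 CPM in all 27 libraries and did not pass the filter. In HBL1 it had 9, 7 and 3 reads in controls, 11, 4 and 12 with shSIRT3_1, and 20, 22 and 29 with shSIRT3_2, so the last group held more reads than either of the others. In the fit without a filter on low values IL6 was called higher in HBL1 with shSIRT3_2 (0.85 ± 0.23 on the log2(CPM + 0.1) scale, limma adjusted p = 0.03) and not with shSIRT3_1 (0.03 ± 0.23), a call that rests on these few reads. In Karpas422 at most 7 reads, and in OCILy1 at most 1 read, fell on IL6.

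CXCR4, the receptor of CXCL12 (chr2:136871919-136876747, hg19), moved in opposite directions with the 2 hairpins in HBL1. It was at 6.34, 6.73 and 4.90 CPM in controls, at 10.2, 10.5 and 31.4 CPM with shSIRT3_1 and at 1.12, 1.16 and 1.51 CPM with shSIRT3_2. The 3 groups did not overlap. The log2 fold change was 1.32 ± 0.39 with shSIRT3_1 (adjusted p = 0.0266) and −2.16 ± 0.39 with shSIRT3_2 (adjusted p = 0.00364), and between the hairpins it was −3.48 ± 0.39 (adjusted p = 0.000738). The shSIRT3_1 call was lost when any HBL1 control was left out (0.0608 to 0.0784) and when the spread was shared over 27 libraries (0.0653). It was kept with the replicate block (0.0218). In OCILy1, where CXCR4 was abundant, the controls varied from 88.0 to 256 CPM and the shSIRT3_2 libraries were at 282, 374 and 344 CPM. These lay above all controls, with a log2 fold change of 1.17 ± 0.42 that was not called (adjusted p = 0.104) but was called with the replicate block (0.0241). With shSIRT3_1 the OCILy1 libraries were at 114, 326 and 150.4 CPM and overlapped the controls (0.27 ± 0.42). In Karpas422 the level was 1.67 to 12.2 CPM over the 9 libraries, replicate 3 was the highest in each group, and no change was called (−0.28 ± 0.67 and 0.44 ± 0.67).

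CXCR5, the follicular homing receptor (chr11:118754601-118768496, hg19), was lower with shSIRT3_2 in both lines that express it. In HBL1 it was at 219, 214 and 214 CPM in controls, at 226, 223 and 328 CPM with shSIRT3_1 and at 103, 118 and 80.9 CPM with shSIRT3_2. In OCILy1 it was at 209, 243 and 246.5 CPM in controls, at 174, 108 and 180.1 CPM with shSIRT3_1 and at 139.8, 62.3 and 132 CPM with shSIRT3_2. All shSIRT3_2 libraries lay below the controls of their line, as did 34.2% of all tested genes in HBL1 and 17.96% in OCILy1. The log2 fold change with shSIRT3_2 was −1.11 ± 0.18 in HBL1 (adjusted p = 0.00208) and −1.15 ± 0.30 in OCILy1 (adjusted p = 0.0415). The OCILy1 call was lost in 7 of 9 fits that left out 1 of its libraries, all except shCTRL replicate 1 and shSIRT3_1 replicate 2, at adjusted p of 0.0502 to 0.116. With all libraries and the replicate block its adjusted p was 0.0155. With shSIRT3_1 the values were 0.24 ± 0.18 in HBL1 and −0.62 ± 0.30 in OCILy1, neither called, and the hairpins differed in HBL1 by −1.35 ± 0.18 (adjusted p = 0.00122). Karpas422 libraries held 0.0723 to 1.33 CPM of CXCR5, too little to pass the filter.

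CCR7, which guides B cells to the T-zone border (chr17:38710021-38721724, hg19), was higher in the OCILy1 knockdown libraries. It was at 1.02, 2.31 and 1.13 CPM in controls, at 3.31, 5.74 and 4.56 CPM with shSIRT3_1 and at 2.94, 9.54 and 4.26 CPM with shSIRT3_2. Every knockdown library was above every control, as for 15.9% of all genes tested in OCILy1 with shSIRT3_1 and 15.4% with shSIRT3_2, and replicate 2 was the highest of each group. The log2 fold change was 1.75 ± 0.43 with shSIRT3_2 (adjusted p = 0.0351, and 0.00323 with the replicate block) and 1.60 ± 0.43 with shSIRT3_1 (adjusted p = 0.0513, and 0.00601 with the replicate block). The shSIRT3_2 call was lost in 6 of 9 fits that left out 1 library, at adjusted p of 0.0501 to 0.109, these libraries being replicates 1 and 3 of shCTRL, replicates 1 and 3 of shSIRT3_1 and replicates 2 and 3 of shSIRT3_2. Without shSIRT3_2 replicate 2, shSIRT3_1 was called instead (0.0274). In HBL1, where CCR7 was most abundant, it was at 133, 115 and 87.1 CPM in controls, at 150.4, 92.1 and 76.9 CPM with shSIRT3_1 and at 88.5, 69.0 and 66.4 CPM with shSIRT3_2. These groups overlapped and neither hairpin was called (−0.11 ± 0.25 and −0.57 ± 0.25). With the replicate block the limma adjusted p for shSIRT3_2 was 0.00923, and the change stayed uncalled because it was under 1.5-fold. Karpas422 held at most 0.594 CPM.

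Of the receptors through which the member ligands act, CCR4, which binds CCL22, and CCR1, which binds CCL3, were low in the lymphoma cells. CCR4 had at most 0.244 CPM in any library and CCR1 at most 0.976 CPM, the latter in Karpas422 alone. Receptors of IL6, IL10 and TNF were present in HBL1. IL6R was at 104, 96.5 and 72.1 CPM in controls, at 37.7, 36.98 and 9.82 CPM with shSIRT3_1 (−1.90 ± 0.48, adjusted p = 0.0136) and at 56.4, 62.1 and 35.3 CPM with shSIRT3_2 (−0.85 ± 0.48, adjusted p = 0.2, and 0.0429 with the replicate block). All knockdown libraries were below the controls. Without HBL1 shSIRT3_1 replicate 3 the shSIRT3_2 value was called as well (0.00968). TNFRSF1B was at 91.2, 88.6 and 78.2 CPM in controls, at 79.6, 68.4 and 57.6 CPM with shSIRT3_1 (−0.34 ± 0.21, not called) and at 26.9, 30.7 and 17.2 CPM with shSIRT3_2 (−1.82 ± 0.21, adjusted p = 0.000471). IL6ST (−1.01 ± 0.14) and IL10RB (−0.86 ± 0.17) were called lower in HBL1 with shSIRT3_1, and IL10RA was called lower in OCILy1 with shSIRT3_2 (−1.35 ± 0.23). TNFRSF1A exceeded 1 CPM in too few libraries of any line to be tested, reaching at most 1.82 CPM, and LTBR had at most 3 reads. TNFRSF14, the receptor of LTA and TNFSF14 on lymphocytes, was called higher in HBL1 with both hairpins (0.60 ± 0.17 and 0.61 ± 0.17), calls lost without any 1 control, without shSIRT3_1 replicate 1 for the first hairpin (0.055 to 0.0631) and without shSIRT3_2 replicate 1 or 2 for the second (0.0538 to 0.0946).

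Related gene lists place the members in their pathways, and their counts are given as tested, higher and lower. They are to be read against the share of all tested genes called, which with shSIRT3_1 and shSIRT3_2 was 16% and 15% in Karpas422, 4.5% and 6.41% in OCILy1, and 27.7% and 23.5% in HBL1. Of the other chemokine ligands 2, 2 and 4 passed the filter in Karpas422, OCILy1 and HBL1, and none was called higher in any line. CXCL11, an interferon-induced ligand of CXCR3, was called lower with both hairpins in Karpas422, from 1.77 ± 0.164 CPM to 0.180 ± 0.0875 and 0.0660 ± 0.0207 CPM (SD, n = 3). It passed the filter of 1 CPM through the controls alone, the group where it was high, so nothing is read from the direction of its calls. In HBL1, 3 of the 4 were called lower with shSIRT3_1 and none with shSIRT3_2. Other chemokine receptors were few, 2 being tested in HBL1, both called lower with shSIRT3_1 and 1 with shSIRT3_2. CCRL2, an atypical receptor that binds chemerin, was called with both (−0.88 ± 0.28 and −1.66 ± 0.28), the former call being lost in 6 fits that left out 1 library (0.0505 to 0.1), namely any control, shSIRT3_1 replicate 3, or shSIRT3_2 replicate 1 or 2.

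Among other TNF family ligands in HBL1, 1 of 9 was called higher and 5 lower with shSIRT3_1 (median −0.79), and none higher and 2 lower with shSIRT3_2 (median 0.07). TNFSF4, the ligand of OX40, fell from 3.501 ± 1.64 CPM to 1.02 ± 0.0270 and 0.709 ± 0.149 CPM, and TNFSF14 from 2.14 ± 0.511 to 0.386 ± 0.162 and 1.00 ± 0.218 CPM, the TNFSF14 call with shSIRT3_2 being lost without shCTRL replicate 1 or 2 or any shSIRT3_2 replicate (0.0598 to 0.117). Of other interleukins and growth factors in HBL1, none of 9 was called higher and 2 lower with shSIRT3_1, and 1 higher and 2 lower with shSIRT3_2. IL15, a survival factor for T and NK cells, had −1.44 ± 0.25 and −1.43 ± 0.25, and IL18, which activates T and NK cells, −1.06 ± 0.23 and −0.84 ± 0.23, the latter call being lost without shCTRL replicate 1 or 2 or shSIRT3_2 replicate 3 (0.0697 to 0.0742). In Karpas422 the IL6 family member CLCF1 was called higher with both (0.89 ± 0.21 and 1.70 ± 0.21).

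The list of NF-kappaB subunits and feedback inhibitors, several of which are targets of the pathway that also controls member cytokines, had in HBL1 1 of 20 genes called higher and 8 lower with shSIRT3_1 (median −0.41), and 3 higher and 3 lower with shSIRT3_2 (median −0.15), where 27.7% and 23.5% of all tested genes were called. In OCILy1, none was higher and 1 lower with shSIRT3_1 (median −0.28) and none higher and 6 lower with shSIRT3_2 (median −0.66), against 4.5% and 6.41% of all tested genes. In Karpas422, 3 of 15 were higher and 1 lower with shSIRT3_1, and 2 higher and 3 lower with shSIRT3_2. RELB, the subunit of the alternative pathway, was called lower with both hairpins in OCILy1 (−1.01 ± 0.20 and −1.23 ± 0.20), the first call being lost without shCTRL replicate 3 or any shSIRT3_1 replicate (0.0522 to 0.0895) and the second without shSIRT3_2 replicate 2 (0.0544). In HBL1, IRF4 (−1.50 ± 0.32 and −1.08 ± 0.32) and TRAF1 (−0.78 ± 0.27 and −1.59 ± 0.27) were called lower with both, and CD83, an activation marker, higher (0.65 ± 0.23 and 1.07 ± 0.23). The IRF4 call with shSIRT3_2 was lost without any 1 control or shSIRT3_2 library (0.0501 to 0.091). With shSIRT3_1 the TRAF1 call was lost with the replicate block (0.0601) and in 7 of 9 fits that left out 1 library (0.0622 to 0.147), all except shCTRL replicate 3 and shSIRT3_1 replicate 3, and the CD83 call in 8 of 9 (0.0679 to 0.143), all except shSIRT3_1 replicate 3. In Karpas422, MYD88 was called higher (0.91 ± 0.20 and 1.36 ± 0.20) and TRAF1 lower (−0.63 ± 0.17 and −0.92 ± 0.17), the first TRAF1 call being lost without shCTRL replicate 1 or 2 or shSIRT3_1 replicate 3 (0.0648 to 0.0721).

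The JAK and STAT list downstream of IL6 and IL10 had at most 3 of its 15 or 16 tested genes called in either direction in any line. The kinase PIM2 was called higher with both hairpins in Karpas422 (1.07 ± 0.18 and 0.77 ± 0.18) and lower with both in OCILy1 (−1.03 ± 0.23 and −0.98 ± 0.23), and STAT5A was called higher in Karpas422 (0.62 ± 0.11 and 0.72 ± 0.11), a change that fell under 1.5-fold with shSIRT3_1 without shCTRL replicate 2. The PIM2 calls in OCILy1 were each lost in 6 of 9 fits that left out 1 library (0.0541 to 0.095 and 0.0501 to 0.104), these being shCTRL replicates 2 and 3, all replicates of the hairpin compared, and for shSIRT3_1 also shSIRT3_2 replicate 1, for shSIRT3_2 also shSIRT3_1 replicate 1. Among 13 cytokine mRNA decay factors, at most 2 were called higher and 1 lower. ZFP36, which binds AU-rich elements and shortens the life of TNF mRNA, was called higher in HBL1 (0.92 ± 0.21 and 0.74 ± 0.21), the line in which TNF was called higher with both hairpins, and KHSRP, another such factor, higher in Karpas422 (0.63 ± 0.08 and 0.75 ± 0.08). The ZFP36 call with shSIRT3_2 was lost without shCTRL replicate 1 or 2 or shSIRT3_2 replicate 1 or 3 (0.073 to 0.0964).

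Of genes of B-cell migration and retention other than the members, 4 of 22 were called higher and 9 lower with shSIRT3_1 in HBL1 (median −0.50, background 27.7%) and 1 higher and 4 lower with shSIRT3_2 (median −0.14, background 23.5%). In Karpas422, of 16 tested, none was higher and 1 lower with shSIRT3_1 and 1 higher and 4 lower with shSIRT3_2 (background 16% and 15%). In OCILy1, of 21 tested, none was higher and 1 lower with shSIRT3_1 and 1 higher and 2 lower with shSIRT3_2 (background 4.5% and 6.41%). In HBL1 the integrin subunit ITGAL fell from 8.94 ± 2.05 CPM to 1.27 ± 0.897 and 0.507 ± 0.177 CPM with the respective hairpins. CD44, the hyaluronan receptor, fell in HBL1 from 652 ± 30.5 to 294 ± 54.7 and 241 ± 29.2 CPM. The CD44 calls were lost when the spread was shared over 27 libraries (adjusted p 0.247 and 0.156). GPR183, the oxysterol receptor that positions activated B cells, rose in HBL1 from 0.713 ± 0.0324 to 5.89 ± 1.12 and 1.498 ± 0.196 CPM. It passed the filter of 1 CPM through the knockdown groups alone, where it was high, so nothing is read from the direction of its calls. In Karpas422 RGS16, a brake on chemokine receptor signalling, fell from 106 ± 14.7 to 40.4 ± 6.42 and 16.4 ± 2.74 CPM. Over all genes tested the scaling mattered to the balance of directions in HBL1: 32.0% of calls were higher with either hairpin, but 43.6% and 47.3% after median-ratio scaling and 50.4% and 49.2% after quantile normalization, which moved the median of all genes by up to 0.14 on the log2 scale. Of calls with shSIRT3_1 in Karpas422, 27.9% were higher, and 39.7% and 46.4% under these scalings.

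**Figure D4:**
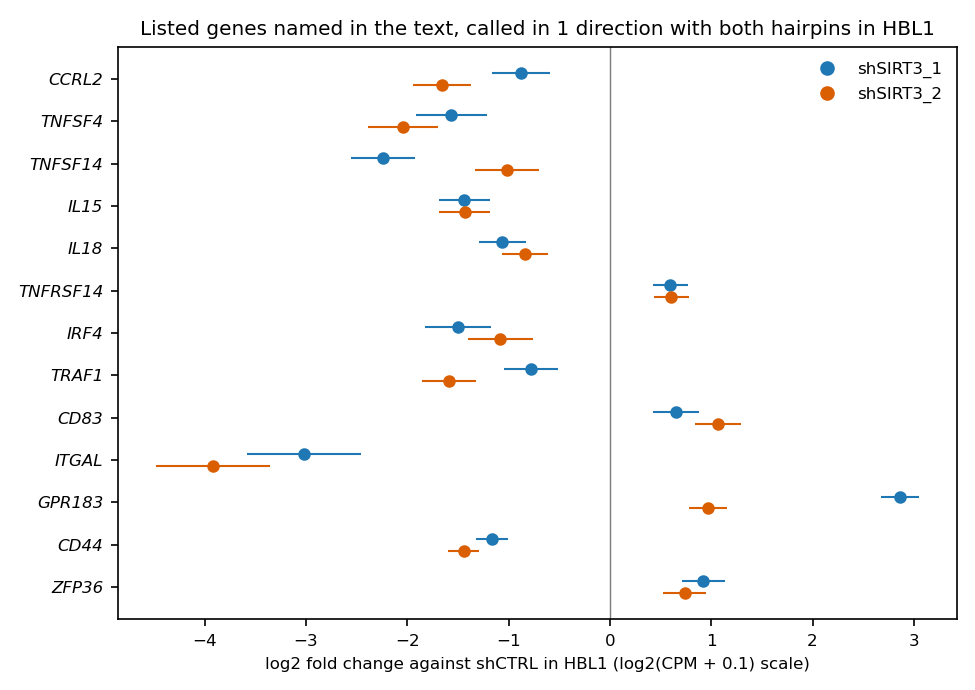
Log2 fold changes against shCTRL with bars of 1 SE are plotted for the listed genes named in the text that were called in the same direction with both hairpins in HBL1, outside the marker lists. ITGAL lies furthest to the left, at −3.02 and −3.92, and GPR183, CD83, ZFP36 and TNFRSF14 lie to the right of zero with both hairpins. GPR183 passed the filter of 1 CPM through the knockdown libraries alone.

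Some markers of the B-cell lineage were called as well, and their counts are to be read against the shares of all tested genes called. With shSIRT3_2, 4 of 6 B-cell markers were called lower in Karpas422 (median −0.78, background 15% with 5.55% higher and 9.44% lower). In HBL1, 4 were called lower and 1 higher with shSIRT3_2 (median −0.82, background 23.5% with 7.51% higher and 16% lower). With shSIRT3_1, 2 were called higher and 1 lower in HBL1 (background 27.7% with 8.83% higher and 18.8% lower). PAX5 was lower with both hairpins in HBL1 (−1.28 ± 0.30 and −1.07 ± 0.30) and CD79A higher (0.85 ± 0.18 and 0.69 ± 0.18). With shSIRT3_2 both calls were lost without shCTRL replicate 1 or 2 or shSIRT3_2 replicate 1 or 3, and that for PAX5 also without shCTRL replicate 3 (0.0561 to 0.0771 and 0.059 to 0.0735). Among ABC markers, IRF4 was lower in HBL1 as above. PIM2, also on this list, was called lower with both hairpins in OCILy1 (−1.03 ± 0.23 and −0.98 ± 0.23) and higher with both in Karpas422, as above. BATF went the other way from PIM2 in OCILy1 and was called higher (1.22 ± 0.25 and 0.98 ± 0.25). Its call was lost without shCTRL replicate 3 or any shSIRT3_1 replicate for the first hairpin (0.0628 to 0.0891) and in 7 of 9 fits for the second, all except those without shCTRL replicate 2 or shSIRT3_1 replicate 2 (0.0503 to 0.136). Of 6 monocyte and macrophage markers 1 was tested in Karpas422 and 1 in HBL1, each called higher with shSIRT3_2, and GCB markers had at most 2 genes called lower and 1 higher in a comparison. The part of these shifts in the members' values was not tested, and in bulk RNA fewer cells expressing a gene and less RNA per cell cannot be told apart.

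The genes whose pattern most resembled each member were sought over the 27 libraries after subtraction of each line's mean, as a description, since libraries of a group share their treatment. CCL3 and CCL4 were each other's closest gene (r = 0.899), followed by FABP3 and CNN1 for CCL3 (0.822 and 0.814) and by CCDC80 and FABP3 for CCL4 (0.848 and 0.834). TNF was closest to DUSP2 (0.901), PTPN7 (0.864) and ZNF318 (0.819), and LTA to HECW2 (0.908), ADGRE5 (0.906) and PSMA8 (0.882). TNF had a lower r with its neighbour LTA (0.596) than with CCL3 (0.714). CCL3 and CCL4 were near zero in OCILy1, which therefore added little to their r values, so the r of TNF with CCL3 and with LTA are not directly comparable. CXCR5 was closest to SPINT2 (0.866), RND1 (0.845) and SERINC4 (0.842), CXCR4 to RASAL1 (0.888), TTC30B (0.871) and C14orf79 (0.865), and CCR7 to KIAA0922 (0.754), BATF (0.747) and MT1X (0.738). CCL22 followed CX3CL1, SLC9A4 (0.965) and SLC5A5 (0.931), and IL10 followed ADGRL1 (0.830), IL18R1 (0.826) and SLC5A5 (0.803). Both CCL22 and IL10 were near zero outside HBL1, so these values rest on that line.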

How the data were processed

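RNA-seq was performed on 27 libraries of total RNA prepared with the TruSeq kit. The authors aligned reads to hg19 with STAR and assigned them to RefSeq genes with Rsubread. Tool versions are not given in the sources used here. The deposited values are labelled FPKM but were used as CPM, since in every library 100% of values were whole multiples of 1 read (within 0.05 reads) with no gene length term, and genes summed to 40.3 to 45.6% of the library total. Whole reads were recovered from these steps.

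The main test was limma 3.58.1 in R 4.3.3 with a variance trend on log2(CPM + 0.1), over genes with at least 1 CPM in 3 libraries of the fit, with Benjamini-Hochberg adjustment over all genes tested. It was fitted on values because the files hold no counts. Lines were fitted separately, together with line as a term, with interactions, and as controls alone. Alternatives were the pseudocount, the filter, the scaling, the trend, the replicate block, a 9-group model, leaving out libraries, and edgeR 4.0.16 on recovered reads. The code was tested on simulated data. Members and lists were chosen with earlier results of these data known. The listed genes named are those called in 1 direction with both hairpins in a line, at most 4 per list and line, with receptors, relatives and neighbours of the members and, for each tested member, the 3 genes most like it. A few genes of this rule are not reported here.

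The labels do not say whether replicates came from separate cultures, so p-values measure the spread between these samples. No replicates agreed within sampling noise (chi-square per gene at least 6.74). Replicate numbers were taken to pair libraries where every same-number correlation of deviations was over 0.1. This held in HBL1 (0.233 to 0.518) and OCILy1 (0.137 to 0.622) but not in Karpas422 (0.00388 to 0.534) or between lines (−0.373 to 0.383). Gene positions and exon lengths are from GENCODE v44 lifted to GRCh37.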

Additional observations from a re-analysis of the deposited data

Results flagged for a closer look

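For 7 of the 9 tested members the response to the SIRT3 hairpins differed between the 3 lines by limma's interaction test, adjusted over all 13076 genes, of which 41.8% passed. The adjusted p was 1.85e-07 for CCL3 and 1.54e-05 for CCL4, which were called higher with shSIRT3_2 in HBL1 and with shSIRT3_1 in Karpas422. It was 0.000418 for TNF, called higher with both hairpins in HBL1 and with shSIRT3_1 in Karpas422, and 0.00135 for CXCR4, called higher with shSIRT3_1 and lower with shSIRT3_2 in HBL1. For LTA it was 0.0153, for CCR7 0.016 and for CCL22 0.0337. CCL22 and IL10 passed the filter through HBL1 alone and were near zero in the other lines, so that 6 of 7 members differed without them, and neither edgeR test called the difference for CCL22. CCL3 and CCL4 in OCILy1 and CCR7 and CXCR5 in Karpas422 were under the filter too, so those lines could show little of a response. In the fit of Karpas422 alone, CCL3 passed the filter only through shSIRT3_1, the group where it was high.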

How the results depend on the processing

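Of 362 alternative values of the 15 counts of called members, 286 stayed within 1.5 times the count reported. Of 4134 alternatives for single genes, 3646 kept their direction and side of the threshold, 344 lost and 93 gained a call, and 51 turned direction, none of them of a called value. The cause of these changes was not tested.

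Counts of called members moved as follows. Over the 3 lines, shSIRT3_1 gave 1 member, but 0 with a pseudocount of 1, without a filter or without a variance trend, 2 with quantile normalization or only the 18 libraries compared, and 3 by edgeR's likelihood ratio test. For shSIRT3_2 the count of 2 became 5 by either edgeR test and 4 with only the 18 libraries. In Karpas422, 3 became 1 for shSIRT3_1 without a filter or a trend, 1 became 0 for shSIRT3_2 without a filter and 2 with the replicate block or the 9-group model, and 3 became 6 between the hairpins in the 9-group model, where more members could be tested. In OCILy1, 0 became 1 for shSIRT3_1 with a pseudocount of 0.01, quantile normalization, the replicate block, the likelihood ratio test or the 9-group model, and 3 became 1 for shSIRT3_2 without a filter and 5 with the replicate block. In HBL1, 4 became 2 for shSIRT3_1 in the 9-group model.

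Leaving out 1 library gave 0 to 2 members over the lines for shSIRT3_1. For shSIRT3_1, shSIRT3_2 and their difference it gave 1 to 3, 0 to 1 and 2 to 3 in Karpas422, 0 to 1, 1 to 3 and 1 to 2 in OCILy1, and 2 to 4, 5 to 7 and 5 to 6 in HBL1. Leaving out replicate 1, 2 or 3 of all 3 groups of a line, chosen after seeing the data, gave in that order 2, 0 and 3 for shSIRT3_1, 0, 0 and 2 for shSIRT3_2 and 1, 0 and 5 for the difference in Karpas422. It gave 0, 1 and 0, then 1, 4 and 0, then 0, 3 and 0 in OCILy1, and 0, 1 and 4, then 3, 4 and 8, then 1, 5 and 6 in HBL1.

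Log2 values that turned direction, all uncalled, were as follows. Over the lines they were CXCR5 with shSIRT3_1 (−0.026 with a pseudocount of 1) and, with shSIRT3_2, CXCR4 (0.38 and 0.37 by the edgeR tests), TNF (0.25 with a pseudocount of 1, 0.068 with quantile normalization, 0.47 and 0.17 by the edgeR tests) and CCR7 (−0.16 with a pseudocount of 0.01). In Karpas422 with shSIRT3_1, edgeR gave CXCR4 0.030 and 0.033 and LTA −0.040 by both tests. In HBL1 with shSIRT3_1, CCL3 was 0.031 with quantile normalization and CCR7 0.045 by both edgeR tests. Quantile normalization gave IL10 0.097 between the hairpins in HBL1 and CCL4 −0.11 between HBL1 and Karpas422 controls. With 1 library left out, the ranges were −0.079 to 0.23 for CXCR5 with shSIRT3_1 over the lines, −0.47 to 0.057 for CXCR4 and −0.30 to 0.33 for TNF with shSIRT3_2 over the lines, −0.94 to 0.072 for CXCR4 and −0.50 to 0.58 for LTA with shSIRT3_1 in Karpas422, −0.27 to 0.95 for CXCR4 and −0.51 to 0.74 for CCL4 with shSIRT3_2 in Karpas422, −0.16 to 0.68 for CXCR4 and −0.29 to 0.20 for LTA with shSIRT3_1 in OCILy1, and −0.32 to 0.52 for CCR7 between the hairpins in OCILy1. In HBL1 they were −0.39 to 0.098 for CCR7 with shSIRT3_1, and −0.49 to 0.47 for IL10 and −0.48 to 1.24 for CCL22 between the hairpins. Without replicate 3 of all 3 groups LTA with shSIRT3_1 in Karpas422 was −0.43, CCL4 with shSIRT3_2 in Karpas422 −0.51 and IL10 between the hairpins in HBL1 0.060, and without replicate 2 LTA with shSIRT3_1 in OCILy1 was 0.29, CCR7 between the hairpins in OCILy1 −0.13 and CCL3 with shSIRT3_1 in HBL1 0.098.

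Members under 1 CPM, among them IL6 in all lines and CCL3 and CCL4 in OCILy1, rest on few reads. Without the filter, CCL3 and CCL4 were not called with either hairpin in OCILy1, and IL6 was called higher with shSIRT3_2 in HBL1 (0.85, adjusted p = 0.03) and in its difference between lines (adjusted p = 0.0045). Replicate numbers in Karpas422 fell short of the pairing rule, although same-number libraries correlated at a mean of 0.302 against −0.132 for different numbers. With the replicate block the count there stayed at 3 for shSIRT3_1, with limma adjusted p of 0.00706 for TNF and 0.00968 for CCL4. LTA was at 0.00308 with shSIRT3_2 and at 0.00454 between the hairpins, while TNF with shSIRT3_2 stayed uncalled (0.0614). On recovered reads edgeR's quasi-likelihood test called 1729 and 1710 genes in Karpas422, 548 and 784 in OCILy1, and 3236 and 2842 in HBL1 with the respective hairpins.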
